A study of Mus musculus with 17 samples.

Results

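Oxidative phosphorylation (OXPHOS) genes were examined in perigonadal white adipose tissue (pWAT), the fat depot beside the gonads, of mice lacking the lncRNA gene U90926. The group held 106 of the 55401 gene identifiers in the files. Its members were chosen by name as the protein-coding genes called Nduf, Sdh, Uqcr, Cyc1, Cox4 to Cox8 or Atp5, together with the protein-coding genes of the mitochondrial genome, without Cox7a1 and Cox8b. The rule used names only, but it was set with earlier results of these data known. Of the 106, 93 lie in the nucleus and 13 on the mitochondrial chromosome. By name, 38 nuclear genes belonged to complex I, 8 were complex I assembly factors, 4 belonged to complex II, 9 to complex III, 16 to complex IV and 18 to complex V. Ndufa4 is placed here with complex I by its name, although it is now regarded as a complex IV subunit. Atp5o is annotated under 2 identifiers. All exon bases of the shorter one are shared on the same strand with the other or with Donson, and it was listed at 0 in every mouse.

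Pads of pWAT came from 5 WT and 5 homozygous U9-KO females and from 3 WT and 4 homozygous U9-KO males, with 1 library per mouse. All mice were C57BL/6J, were fed standard chow and were 16 weeks old according to the methods. The paper describes the cohort as put through a phenotyping pipeline, with food withdrawal, blood sampling and an injected glucose load. It describes no other treatment of these mice. It also reports measurements of the cohort at later ages than 16 weeks. WT and U9-KO mice were littermates from crosses of heterozygotes, and every U9-KO mouse carried the same germline deletion of the U90926 exons in all cells. The labels do not say which mice shared a litter. Each library is whole tissue, so that fewer cells of a type and less RNA per cell cannot be told apart.

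Complexes I and II pass electrons from NADH and succinate to ubiquinone, complex III passes them to cytochrome c, and complex IV, cytochrome c oxidase, passes them to oxygen. Complexes I, III and IV pump protons across the inner mitochondrial membrane, and complex V, the ATP synthase, uses the proton gradient to make ATP. Most subunits are encoded in the nucleus and imported, whereas a small set of core subunits is transcribed inside the organelle from the mitochondrial genome. White fat has fewer mitochondria than brown fat and uses them for fatty acid synthesis and lipid turnover as well as for ATP.

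The deposited values were normalized counts: reads per gene after division by one factor per library, rounded to whole numbers. Their sum per library was between 20243688 and 28620744. From the steps between low values, depth was estimated at 19700000 to 27610000 counted reads per library. The estimated factors had a geometric mean of 1.00 in females and 1.01 in males, as would arise if each sex had been scaled on its own, and levels are therefore compared within a sex. U90926 itself was at 1 in 2 WT mice and at 0 in the other 6 WT mice and all 9 U9-KO mice, so that it could not serve as a check of the genotype labels. In the OXPHOS genes, 2 libraries stood apart from the others of their sex. These were U9-KO female 3, which also had the largest summed normalized count, and WT male 2. The comparisons between genotypes are therefore also given without them.

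To show what neighbouring OXPHOS genes share in sequence, the 250 bases before the start of each nuclear member were searched on both strands, in the RefSeq promoter windows of GRCm38.p6, for 3 short motifs. The first is the core of the site of NRF1, a transcription factor known for binding promoters of respiratory chain genes, with the letters CGCATGCG. The second is the ETS core CCGGAAG, which GABP binds, and the third is TCAAGGTCA, bound by the oestrogen-related receptors. Windows were at hand for 72 of 92 nuclear symbols, which is 78.3% and under 80%, so that the shares are void as a description of the whole group. In those 72 the NRF1 letters were found in 8 promoters (11.1%) and in 402 of 16513 protein-coding genes with a window (2.43%). The ETS letters were in 14 (19.4%) against 1741 (10.5%) and the third motif was in 1, Atp5g3, against 61. None of the motifs overlapped another in the stretches below. Shown are the promoter stretches that hold the NRF1 letters and of which at most 30 bases lie within the annotated gene. The start searched from is that of RefSeq, and the gene is that of GENCODE, which can begin earlier. All 24 bases shown for Ndufa8 and 23 of the 38 for Atp5k lie within the GENCODE gene, and so do the NRF1 letters of both. For Cox6a1 it is 23 of 176, with the ETS letters among them. NRF1 and ETS letters are in capitals, and each sequence is written 5′ to 3′ on the strand of its gene.
Atp5k (chr5:108434426-108434463, minus strand): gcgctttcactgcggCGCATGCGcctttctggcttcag
Atp5l (chr9:44920933-44920992, minus strand): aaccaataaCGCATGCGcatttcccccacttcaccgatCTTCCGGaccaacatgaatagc
Cox6a1 (chr5:115348959-115349134, minus strand): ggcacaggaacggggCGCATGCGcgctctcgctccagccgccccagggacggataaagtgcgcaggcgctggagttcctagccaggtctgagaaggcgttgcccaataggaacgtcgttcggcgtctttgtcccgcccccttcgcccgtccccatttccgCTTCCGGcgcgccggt
Ndufa11 (chr17:56717688-56717725, plus strand): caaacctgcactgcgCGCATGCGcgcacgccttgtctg
Ndufa8 (chr2:36049339-36049362, minus strand): gcgcgtcgctggagaCGCATGCGc
Ndufaf4 (chr4:24897956-24897993, plus strand): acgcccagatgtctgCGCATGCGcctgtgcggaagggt
A match is a run of letters and not a measured binding site.

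Mitochondrially encoded genes are packed end to end, and some share bases, which affects how reads are assigned. The last 43 bases of mt-Atp8 are the first 43 of mt-Atp6, at positions 7927 to 7969 of the mitochondrial chromosome (chrM:7927-7969, plus strand, GRCm38).
mt-Atp8 and mt-Atp6, shared bases: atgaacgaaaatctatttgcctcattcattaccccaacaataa
This is 21.1% of mt-Atp8 and 6.31% of mt-Atp6. The counting mode discards a read that touches 2 genes, so that reads on these bases count for neither gene. The overlap of mt-Nd4l with mt-Nd4 is 7 bases.

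Per kilobase of exon, the mitochondrially encoded genes were far above the nuclear ones. Over the 17 mice the mean normalized count per kb was between 24808 for mt-Nd6 and 235881 for mt-Co1, with a median of 82194. mt-Co1 encodes the catalytic core of cytochrome c oxidase, and mt-Nd6 is the protein-coding gene of the opposite strand. Among nuclear members the median was 1135, and the highest was Cox8a, a small subunit of complex IV, at 11388. The lowest mitochondrially encoded gene was thus above the highest nuclear one. It was also above the highest nuclear gene, Atp5b at 16004, when length was that of the longest principal transcript in place of all exons joined. mt-Co2 and mt-Co3, the other core subunits of complex IV, stood at 179653 and 146339 per kb, and mt-Atp6 of the ATP synthase proton channel at 118730. mt-Cytb, the cytochrome b of complex III, was at 117024. The complex I genes mt-Nd4, mt-Nd1, mt-Nd4l, mt-Nd2, mt-Nd5 and mt-Nd3 were at 90706, 77494, 72993, 54644, 42384 and 30173.

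The complexes differed less among themselves than their members did. The median level per kb was 1014 in complex I, 1764 in complex II, 2465 in complex III, 1661 in complex IV and 1213 in complex V, and 156 among the complex I assembly factors. The latter are needed while the complex is built and are not part of it. The 2 highest members were Ndufa2 (3565) and Ndufa4 (2429) in complex I, Sdha (2963) and Sdhd (1976) in complex II, Uqcr10 (4179) and Uqcr11 (3676) in complex III, Cox8a and Cox6a1 (8154) in complex IV and Atp5b (7237) and Atp5a1 (5372) in complex V. Sdha is the flavoprotein that oxidises succinate, Sdhd a membrane anchor, Uqcr10 and Uqcr11 are small accessory subunits, and Atp5b and Atp5a1 form the catalytic head of the ATP synthase. Among the assembly factors, Ndufaf8 (400) and Ndufaf1 (328) were highest. Ndufb2 was the lowest subunit of complex I, at 20.8 per kb, with 79 to 169 normalized counts per mouse. Its annotated exons span 5628 bases, of which 145 are shared on the same strand with another gene.

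**Figure D1:**
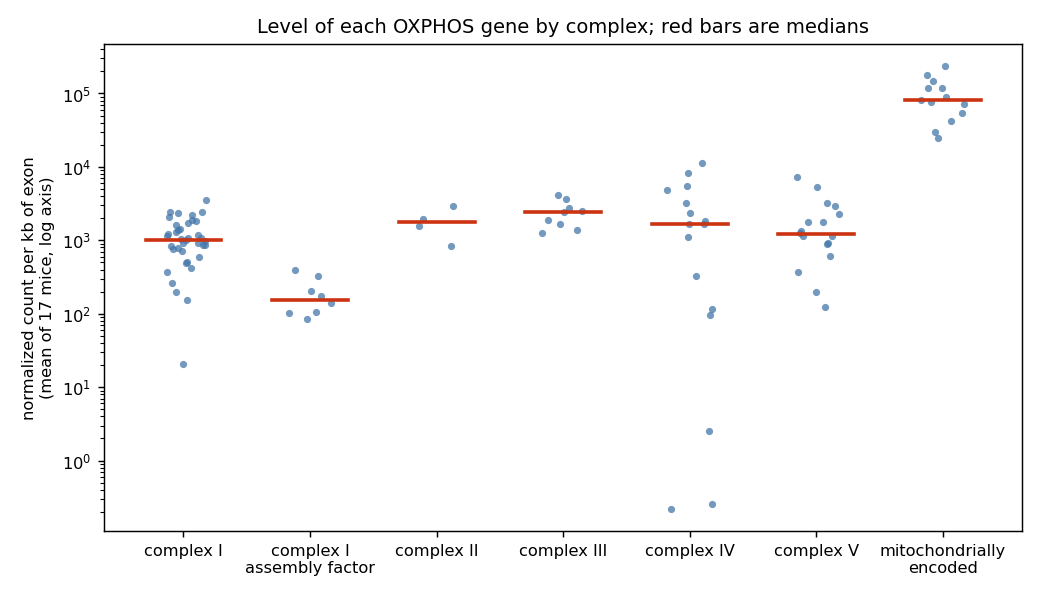
Mean normalized count per kb of exon of each OXPHOS gene over 17 mice, on a log axis, by complex. Each point is 1 gene and red bars are medians over all members of a complex. All 13 mitochondrially encoded genes, from 24808 to 235881, lie above every nuclear gene, and 3 complex IV genes lie below 10. The second Atp5o identifier, at 0, is counted in the median and cannot be drawn.

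Complex IV has isoforms that are restricted to other tissues or states, and in pWAT the widely expressed partner dominated in each pair. Cox4i2, known from lung and from hypoxia, was at 55 to 88 normalized counts in females and 67 to 96 in males. Per kb the level of Cox4i1 was 55.9 times that of Cox4i2 in females and 58.9 times in males. Ndufa4l2, which is induced by hypoxia, had 109 to 270 counts, and Ndufa4 was 17.2 times higher per kb in females and 13.8 times in males. Cox6b2, a form known from testis, had 110 to 272 counts in females and 35 to 82 in males. Cox6b1 exceeded it 28.6 times per kb in females and 101 times in males. These are ratios of the mean levels of a sex. Within single mice, where scaling has no part, the ratio ran from 40.7 to 80.1 for Cox4i1 over Cox4i2, from 8.67 to 24.7 for Ndufa4 over Ndufa4l2, and for Cox6b1 over Cox6b2 from 16.1 to 71.0 in females and 71.1 to 186 in males. Cox6a2, the heart and muscle form, had 0 to 4 counts. Cox7b2 was at 0 in every mouse but U9-KO female 4, which had 2, and Cox8c, another testis form, at 0 in every mouse but WT male 2, which had 2. Their partners Cox6a1, Cox7b and Cox8a had between 1582 and 9973. Cox7b2, Cox8c and the second Atp5o identifier did not pass the filter of a total of 10 counts. The other 103 members were tested in females, in males, in both sexes together and in the interaction. It was 102 with a mean of at least 10 as the filter and in males without WT male 3, and 104 or 105 with no filter.

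Nearly all OXPHOS transcripts were high or low in the same mice. Atp5b (ENSMUSG00000025393, chromosome 10, 128083273 to 128090391), the catalytic beta subunit of the ATP synthase, shows the pattern. Its normalized count was 32243, 30329, 20754, 21598 and 24479 in WT females 1 to 5 and, in U9-KO females 1 to 5, 25987, 31278, 43912, 21410 and 25210. In males it was 38887, 24658 and 32170 in WT 1 to 3 and 38236, 36206, 36343 and 37592 in U9-KO 1 to 4. U9-KO female 3 was above all other females, WT male 2 was below all other males, and the genotypes overlapped in both sexes. The count of mt-Co1 (ENSMUSG00000064351, mitochondrial chromosome, 5328 to 6872) was 384183, 348693, 337759, 341814 and 355913 in WT females, while U9-KO females had 321544, 404729, 660562, 325287 and 344672. It was 400141, 231134 and 300054 in WT males and 365262, 335939, 341404 and 396331 in U9-KO males. The same mice were at the extremes, and the groups again overlapped.

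Of the 103 members tested, 98 had their highest value among the 10 females in U9-KO female 3, where 19.7% of all 24825 genes tested did. The 98 included all 13 mitochondrially encoded genes, all members of complexes II, III and V that were tested and all 8 assembly factors. In WT male 2, 95 of the 103 were lowest among the 7 males, again with all 13 mitochondrially encoded genes, against 21.7% of all 21930 genes. With each library rescaled to the same sum outside the mitochondrial chromosome, the counts were 81 of 103 in U9-KO female 3, where then 6.96% of all genes were highest, and 91 of 103 in WT male 2, where 15.5% were lowest. As a difference from the mean of the females in log2(normalized count + 1), the median of the nuclear genes was 0.60 in U9-KO female 3, and between -0.27 and 0.16 in the other 9. For the mitochondrially encoded genes it was 0.82 in U9-KO female 3. In males, WT male 2 was at -0.36 for the nuclear and -0.54 for the mitochondrially encoded genes, while the other 6 males lay between -0.06 and 0.17 for the nuclear genes. Nuclear and mitochondrially encoded medians had the same sign in 9 of 10 females and in 7 of 7 males.

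**Figure D2:**
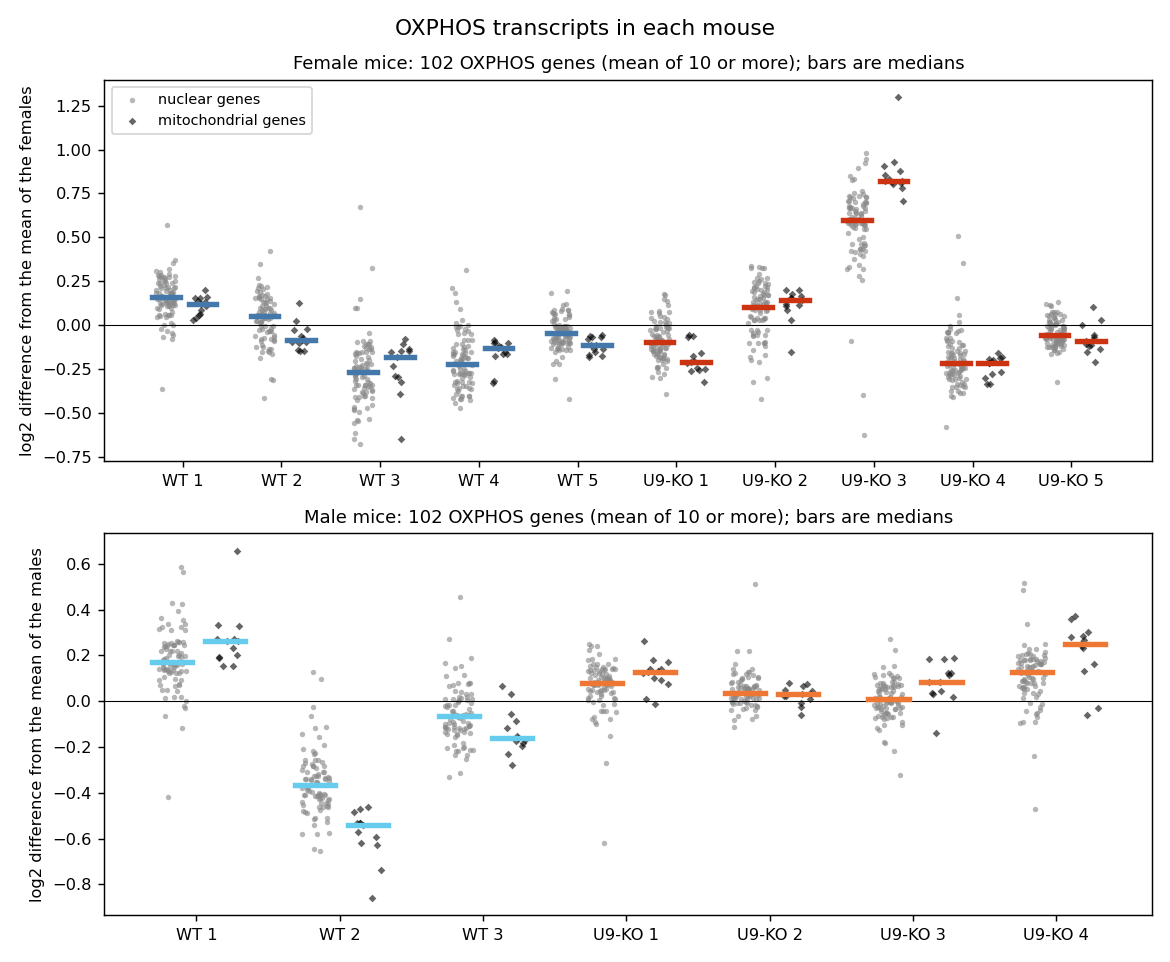
Difference of each OXPHOS gene from the mean of its sex, in log2(normalized count + 1), for each mouse, with females above and males below. Grey circles are nuclear and black diamonds mitochondrially encoded genes, and coloured bars are their medians in WT (blue) and U9-KO (red or orange) mice. U9-KO female 3 stands at 0.60 and 0.82, and WT male 2 at -0.36 and -0.54.

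All complexes shared in this. In U9-KO female 3 the median difference was 0.60 in complex I, 0.59 in complex II, 0.73 in complex III, 0.67 in complex IV and 0.58 in complex V, and 0.43 among the assembly factors. In WT male 2 it was -0.37, -0.38, -0.41, -0.39 and -0.34 in complexes I to V and -0.25 among the assembly factors. Once the median of the nuclear members was subtracted from each mouse, little spread was left. Over the 102 members with a mean of at least 10, the median SD between females fell from 0.29 to 0.11 on the log2 scale, and between males from 0.21 to 0.093. The SD was smaller after the subtraction for 94 genes in females and 95 in males.

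A few members went their own way. In females, the exceptions to the maximum in U9-KO female 3 were Ndufa4l2, Ndufb2, Cox6a2, Cox6b2 and Cox7a2l. Cox6b2 went the opposite way, with 132, 137, 272, 212 and 195 in the WT and 163, 127, 110, 243 and 184 in the U9-KO females, so that U9-KO female 3 was the lowest of the 10. Cox7a2l was nearly level. It had 2612, 2779, 2986, 2453 and 2517 counts in the WT, 2465, 3190, 2536, 2627 and 2923 in the U9-KO females, and 2058 to 2236 in all males. In males, Ndufa4l2, Ndufb2, Ndufaf1, Cox4i2, Cox6a2, Cox6b2, Cox7a2l and Atp5s were not lowest in WT male 2. The largest departure of a mitochondrially encoded gene was mt-Nd3 of complex I. It had 11817, 10469, 6562, 8251 and 9356 counts in the WT and 9829, 9254, 25354, 9039 and 10301 in the U9-KO females, 14736, 5156 and 9552 in WT males, and 9393, 8955, 8483 and 11999 in U9-KO males.

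Nuclear OXPHOS genes took about 1 percent of the summed normalized counts and mitochondrially encoded genes about 5 percent. The nuclear share was 1.04% ± 0.087 in WT and 1.10% ± 0.135 in U9-KO females (mean ± SD, n = 5 each), 1.09% ± 0.178 in WT males (n = 3) and 1.17% ± 0.029 in U9-KO males (n = 4). The mitochondrially encoded share was 5.21% ± 0.198 in WT and 5.60% ± 1.10 in U9-KO females, and 4.55% ± 1.08 in WT males and 5.30% ± 0.293 in U9-KO males. U9-KO female 3 reached 7.46% and WT male 2 only 3.53%, while the other 15 mice lay between 4.43% and 5.71%. Without U9-KO female 3, the U9-KO females were at 5.14% ± 0.416 (n = 4), below the WT mean, and their nuclear share was 1.05% ± 0.082. Without WT male 2, the mitochondrially encoded share of the remaining 2 WT males averaged 5.06% and their nuclear share 1.18%, the latter no longer below the U9-KO males. The 2 mitochondrial rRNAs summed to 6099 to 11743 counts, with the highest sum in WT male 2. The libraries were selected for poly(A) RNA, so that these sums are no measure of rRNA levels.

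The sum of the mitochondrially encoded genes divided by that of the nuclear genes does not depend on how a library was scaled. It was 5.05 ± 0.446 in WT and 5.08 ± 0.403 in U9-KO females (n = 5 each), and 4.14 ± 0.316 in WT (n = 3) and 4.51 ± 0.178 in U9-KO males (n = 4). In females the values were 4.74, 4.53, 5.52, 5.49 and 4.95 in WT and 4.64, 5.03, 5.73, 5.09 and 4.91 in U9-KO mice. In males they were 4.49, 3.87 and 4.07 in WT and 4.48, 4.31, 4.53 and 4.74 in U9-KO mice. The genotypes overlapped in both sexes, and in females their means lay closer together than 1 SD. U9-KO female 3 had the highest ratio and WT male 2 the lowest, the same mice that were at the extremes of each sum. Without U9-KO female 3 the mean ratio of the U9-KO females was 4.92 ± 0.198 (n = 4), below that of the WT females, and without WT male 2 that of the WT males was 4.28.

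**Figure D3:**
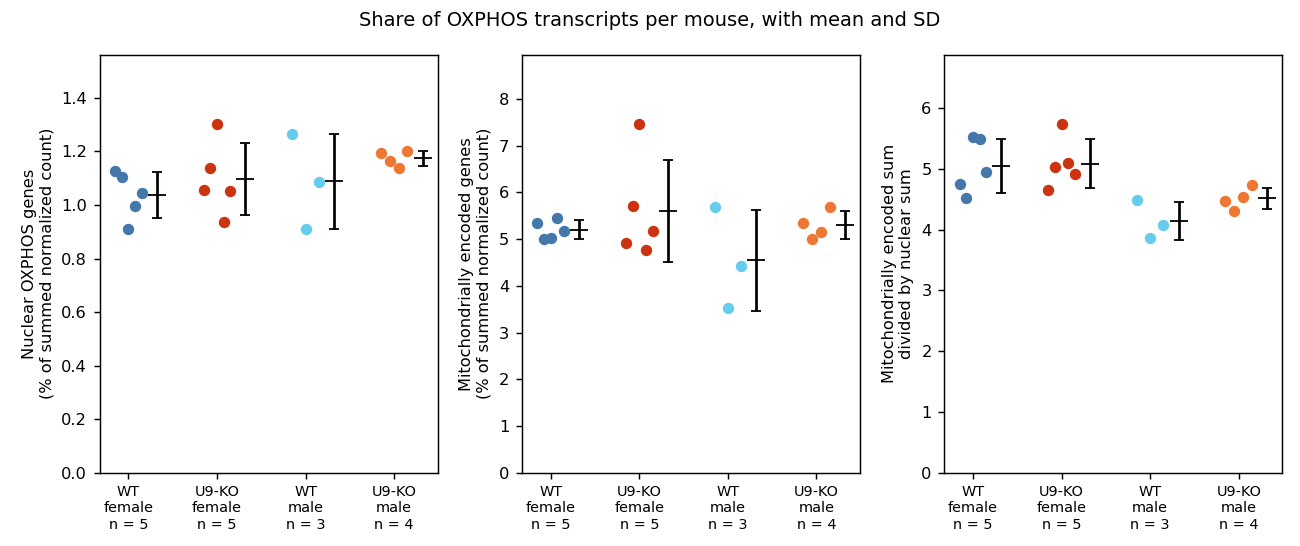
Share of the summed normalized counts from nuclear (left) and mitochondrially encoded (middle) OXPHOS genes, in percent, and the ratio of the mitochondrially encoded to the nuclear sum (right), by group. Points are mice, and black bars give mean and SD. U9-KO female 3 is at 7.46% and WT male 2 at 3.53% in the middle panel, and in the right panel the genotypes overlap in each sex.

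In females, no OXPHOS gene passed the test between U9-KO and WT mice. With limma on log2(normalized count + 1), 0 of 103 members had an adjusted p under 0.05 (0% of all 24825 genes) and none an unadjusted p under 0.05. Among all genes, 1.24% were at that unadjusted p and higher in U9-KO mice and 0.983% lower, 309 and 244 genes, or 223 and 292 with libraries rescaled outside the mitochondrial chromosome. No member had all U9-KO values above or all below the WT values, as 0.169% and 0.0685% of all genes did. The paper, which used DESeq2, reports differentially expressed genes in females and more of them in males. DESeq2 was not run here, and the absence of genes passing adjustment holds only for limma on rounded normalized counts. The median log2 fold change was 0.13 over the 90 nuclear genes tested, 83 of which were above 0, and 0.17 over the 13 mitochondrially encoded genes, all above 0. Quantile normalization turned the latter median to -0.02 and left the nuclear one at 0.10. It gives every library the same set of values and so limits a joint shift of the most abundant genes. The median over all genes was 0.00. These medians rested on U9-KO female 3. Without it they were 0.01 and -0.01, with 49 of 90 and 4 of 13 genes above 0. Without U9-KO female 4, whose nuclear median was 0.22 below the mean of the females, they were 0.21 and 0.26, and 4 members reached an unadjusted p under 0.05, as did 5.00% of all genes in that fit. Without WT female 1, 1 member and 2.71% of all genes did. For the 89 nuclear genes with a mean of at least 10, the 95% intervals of the log2 fold change had a median width of 0.36 to each side and reached at most from -0.75 to 0.81.

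By complex, the median log2 fold change in females was 0.12 in complex I, 0.10 among its assembly factors, 0.16 in complex II, 0.22 in complex III, 0.13 in complex IV and 0.13 in complex V. Without U9-KO female 3 the highest of these medians was 0.07, in complex III, and those of complexes I and IV were -0.00 and -0.01. The members with the smallest p were Ndufa11, Atp5k, Ndufs4, Uqcrfs1 and Cox5a, and those with the largest fold change, among genes with a mean of at least 10, were mt-Nd3, Atp5k and Atp5g3. Atp5k, subunit e of the ATP synthase, which holds pairs of the enzyme together, had 1210, 1000, 769, 877 and 959 counts in WT and 972, 1027, 2060, 1012 and 1169 in U9-KO females. U9-KO exceeded WT by a log2 fold change of 0.33 ± 0.20 (SE, limma, adjusted p = 1), and by 0.13 without U9-KO female 3. The groups overlapped, and U9-KO females other than number 3 lay within the WT range. Ndufa11, an accessory subunit of complex I, was at 0.29 ± 0.18 and 0.16 without that mouse. Ndufs4, an accessory subunit known from Leigh syndrome, was at 0.28 ± 0.20 and 0.10 without it. Uqcrfs1, the Rieske iron-sulfur protein of complex III, was at 0.28 ± 0.20 and 0.11, Atp5g3 of the c-ring at 0.30 ± 0.23 and 0.10, and Cox5a of complex IV at 0.29 ± 0.22 and 0.12. mt-Nd3 was at 0.36 ± 0.28 and 0.07.

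**Figure D4:**
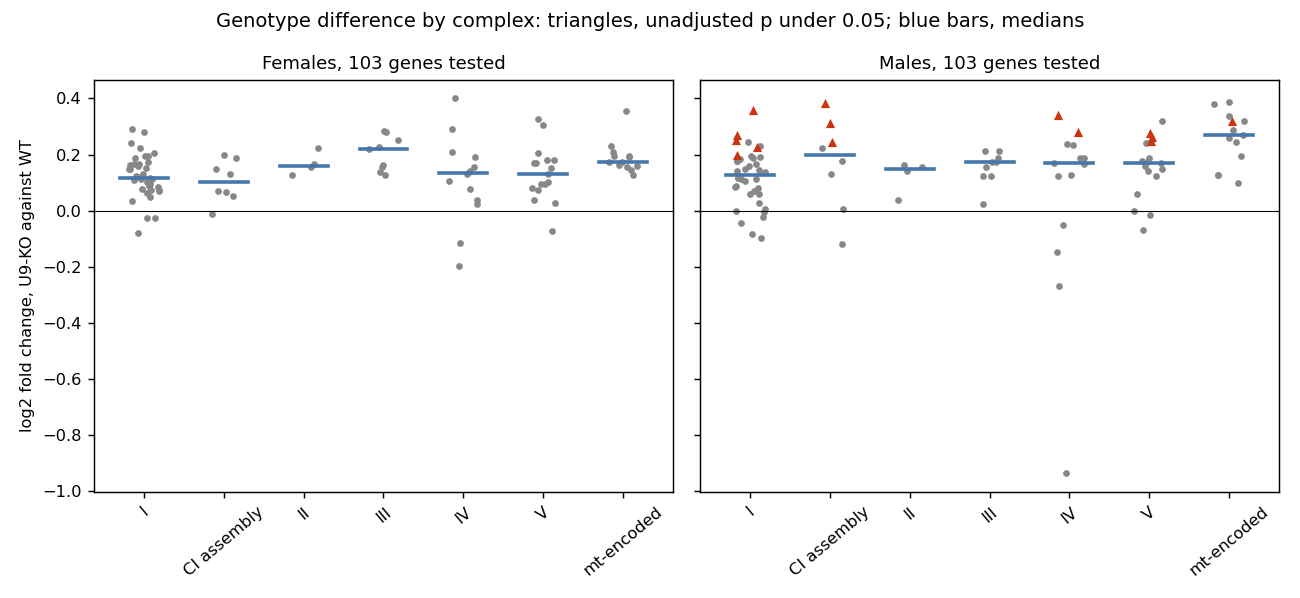
Log2 fold change of U9-KO against WT mice for each of 103 OXPHOS genes by complex, in females (left) and males (right). Grey circles and red triangles are genes, triangles having an unadjusted p under 0.05 by limma, and blue bars are medians. There are 0 triangles in females and 14 in males, none of which passed adjustment. The point at -0.93 in males is Cox6a2, with 0 to 4 counts.

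In males, likewise, no OXPHOS gene passed adjustment, and 14 of 103 (13.6%) were higher in U9-KO mice at an unadjusted p under 0.05. Among all 21930 genes, 3.51% were higher and 4.09% lower at that threshold, 769 and 898 genes, or 576 and 1069 after rescaling outside the mitochondrial chromosome. By limma 0% passed adjustment (smallest adjusted p = 0.612). In males too, the paper reports differentially expressed genes by DESeq2, a test that was not run here. No member was lower at an unadjusted p under 0.05. The count of 14 was 6 without the mean-variance trend of limma and 3 with all 17 mice in 1 fit. The 14 were Ndufa5, Ndufa9, Ndufa12, Ndufab1 and Ndufc2 of complex I, the assembly factors Ndufaf1, Ndufaf4 and Ndufaf7, Cox6a1 and Cox6b1 of complex IV, Atp5h, Atp5j2 and Atp5l of complex V, and mt-Atp8. In 5 of these, Ndufa5, Ndufab1, Ndufc2, Ndufaf1 and Atp5h, every U9-KO value was above every WT value, and no member had every U9-KO value below. Of all genes, 3.8% did the former and 3.8% the latter. The median log2 fold change was 0.16 over 90 nuclear genes, 76 above 0, and 0.27 over the 13 mitochondrially encoded genes, all above 0, while that of all genes was 0.00.

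Both WT male 1 and WT male 2 decided these values, in opposite directions. Without WT male 2 the medians were 0.01 (46 of 90 genes above 0) and 0.08 (10 of 13), and 4 members were higher and 6 lower at an unadjusted p under 0.05, beside 661 and 766 of all 21411 genes (6.66% in all). The medians of the complexes were then between -0.03 in complex III and 0.02 in complex IV, and 0.07 for the assembly factors. Without WT male 1, in which 60 of the 103 members had their highest value of the males, the medians were 0.29 and 0.47. In that fit 65 of 103 members had an unadjusted p under 0.05, as did 3345 of 21467 genes, and all 65 were higher in U9-KO mice. The smallest adjusted p of a member was 0.0516 by limma, so that none passed, whereas 71 of all genes did. Leaving out WT male 3 or any U9-KO male left 6 to 9 members at an unadjusted p under 0.05, beside 5.51% to 6.74% of all genes. Only 3 WT males were at hand, and they spanned a wider range of OXPHOS levels than the 4 U9-KO males. The nuclear sum ran from 200806 to 301377 in the WT and from 268450 to 287214 in the U9-KO males, and the mitochondrially encoded sum from 776565 to 1352074 and from 1171958 to 1360408.

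The member with the smallest p in males was Cox6b1 (ENSMUSG00000036751, chromosome 7, 30616861 to 30626151), a subunit on the cytochrome c side of complex IV. Its count was 3723, 2789 and 3033 in WT and 4169, 3876, 3689 and 4283 in U9-KO males. WT male 1 lay above the lowest U9-KO male, so that the groups overlapped. The log2 fold change was 0.34 ± 0.11 (SE, adjusted p = 0.612 by limma), and 0.25 to 0.46 when 1 mouse was left out. In females it was 0.13 ± 0.16. Ndufaf1 (chromosome 2, 119655446 to 119662827), an early complex I assembly factor, had 508, 477 and 428 counts in WT and 628, 568, 528 and 615 in U9-KO males. These groups did not overlap, the log2 fold change was 0.31 ± 0.10 (adjusted p = 0.612 by limma), and WT male 3 rather than WT male 2 was lowest. In females, where it had 397 to 478 in WT and 403 to 630 in U9-KO mice, it was 0.15 ± 0.13.

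Atp5h, subunit d of the stalk that holds the ATP synthase head, had 3563, 2870 and 3229 counts in WT and 3942, 3767, 3761 and 3921 in U9-KO males, with a log2 fold change of 0.26 ± 0.08. Ndufab1, the mitochondrial acyl carrier protein, which also serves fatty acid synthesis in the organelle, had 1474, 978 and 1166 in WT and 1513, 1595, 1519 and 1475 in U9-KO males. WT male 1 was 1 count below the lowest U9-KO male, and the log2 fold change was 0.36 ± 0.12. Ndufaf4, an assembly factor, had 560, 401 and 476 in WT and 645, 529, 667 and 648 in U9-KO males, and was at 0.38 ± 0.13. All 3 had an adjusted p of 0.612 by limma. Without WT male 2 the log2 fold changes of Atp5h, Ndufab1 and Ndufaf4 were 0.18, 0.22 and 0.26, and without WT male 1 they were 0.34, 0.51 and 0.50. In females their log2 fold changes were 0.04 ± 0.12, 0.20 ± 0.19 and 0.20 ± 0.20.

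Among the mitochondrially encoded genes in males, mt-Co3 was at 0.39 ± 0.23, mt-Cytb at 0.38 ± 0.20, mt-Nd1 at 0.34 ± 0.19, mt-Co2 and mt-Atp8 at 0.32 ± 0.20 and 0.32 ± 0.14, and mt-Atp6 at 0.29 ± 0.20. The remaining 7 lay between 0.10 (mt-Nd3) and 0.27 (mt-Nd4). mt-Co3 had 125603, 62354 and 90895 counts in WT and 114880, 108940, 110180 and 134752 in U9-KO males. mt-Cytb had 136262, 79266 and 108611 in WT and 138104, 126859, 139968 and 144865 in U9-KO males. In both, WT male 1 lay within the range of the U9-KO males, and WT male 2 was far below it. Without WT male 2 the log2 fold changes of mt-Co3 and mt-Cytb were 0.13 and 0.17. In females the 13 genes lay between 0.13 (mt-Nd4) and 0.36 (mt-Nd3), with SEs of 0.19 to 0.28.

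The most abundant nuclear members of each complex showed small differences in both sexes. In females and males, the log2 fold change was 0.11 ± 0.16 and 0.03 ± 0.16 for Ndufa2, 0.22 ± 0.19 and 0.16 ± 0.14 for Sdha, 0.16 ± 0.17 and 0.17 ± 0.12 for Uqcr10, 0.13 ± 0.18 and 0.13 ± 0.13 for Cox8a, and 0.17 ± 0.20 and 0.24 ± 0.15 for Atp5b. Sdha had 12988, 12426, 8944, 8573 and 10313 counts in WT and 10661, 14184, 18309, 9362 and 10685 in U9-KO females, and 15069, 9515 and 12557 in WT and 13625, 13527, 13579 and 13521 in U9-KO males. The 4 U9-KO males were close together, and the WT males lay on both sides of them. Cox8a had 7576, 6595, 5199, 4892 and 6209 in WT and 5614, 6845, 9973, 5321 and 6149 in U9-KO females, and 8781, 5850 and 8124 in WT and 8292, 8147, 7714 and 8552 in U9-KO males. Among the isoforms, Cox4i1 was at 0.14 ± 0.18 and 0.17 ± 0.12 and Cox4i2 at -0.11 ± 0.18 and -0.15 ± 0.18. Cox6a1 was at 0.03 ± 0.14 and 0.28 ± 0.11, Cox7b at 0.19 ± 0.15 and 0.19 ± 0.15, Cox6b2 at -0.20 ± 0.25 and -0.27 ± 0.31, Ndufa4 at 0.09 ± 0.18 and -0.02 ± 0.18, and Ndufa4l2 at -0.03 ± 0.21 and -0.10 ± 0.20.

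With both sexes in 1 fit and sex as a covariate, 0 of 103 members passed adjustment (0% of all 26289 genes). Atp5k, Ndufaf1 and Ndufab1 were higher in U9-KO mice at an unadjusted p under 0.05, as were 1.94% of all genes, 509, and 330 after rescaling outside the mitochondrial chromosome. Another 548 genes were lower, 719 after rescaling, with no member among the 548. The log2 fold changes of Atp5k, Ndufaf1 and Ndufab1 were 0.32 ± 0.15, 0.21 ± 0.09 and 0.26 ± 0.12. Without U9-KO female 3 no member was at that p, and 3.14% of all genes were in either direction. The count without WT male 2 was 1 member and 2.96% of all genes, without U9-KO female 4 it was 20 and 8.47%, and without WT male 1 it was 15 and 5.62%. Leaving out any other mouse gave 0 to 10 members. The median was 0.14 over the nuclear genes and 0.22 over the mitochondrially encoded genes. A difference of the genotype effect between the sexes was not detected. In the test of the interaction, 0 members had an adjusted p under 0.05 and 0 an unadjusted p under 0.05, the latter against 3.46% of all genes and the former against 0%. The median interaction was 0.00 over the nuclear and 0.13 over the mitochondrially encoded genes, with median SEs of 0.24 and 0.32. Without U9-KO female 3 these medians were 0.14 and 0.31, with 4 members and 4.12% of all genes at an unadjusted p under 0.05, and without WT male 2 they were -0.13 and -0.08, with 1 member and 3.27% of all genes.

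Genes that work with the OXPHOS complexes followed the same mice. The 13 enzymes of the citric acid cycle were all highest in U9-KO female 3 and all lowest in WT male 2, with medians of 0.57 and -0.43. For 35 assembly factors not among the members the medians were 0.42 and -0.30, for 8 carriers of electrons and substrates 0.50 and -0.37, and for 77 mitochondrial ribosomal proteins 0.38 and -0.28. For 19 genes of mitochondrial transcription, processing and RNA upkeep they were 0.16 and -0.27. The cytosolic ribosome was a contrast in U9-KO female 3 only, at -0.08 with 4 of 83 genes highest there. In WT male 2 it was at -0.11 with 40 of 82 genes lowest, a larger share than that of all genes given above. Cs, citrate synthase, had 11811, 11367, 6789, 6218 and 7728 counts in WT and 10051, 12791, 20660, 6915 and 9597 in U9-KO females. Cycs, the cytochrome c of somatic cells, had 3824, 3391, 1932, 2036 and 2306 in WT and 3236, 3818, 6363, 1726 and 2865 in U9-KO females. The 11 regulators of nuclear OXPHOS genes were at 0.16 and -0.13. Of these, Esrra had 555 to 990 counts in WT and 711 to 1226 in U9-KO females, and Ppargc1a, the coactivator PGC-1α, had 155 to 226 and 119 to 257, with 210 in U9-KO female 3.

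Between genotypes these lists gave no gene with an adjusted p under 0.05 in either sex. In females none of their genes had an unadjusted p under 0.05. In males 12 of 77 mitochondrial ribosomal proteins, 3 of 35 assembly factors, 3 of 19 genes of mitochondrial gene expression, 2 of 13 citric acid cycle enzymes and 1 of 8 carriers were higher in U9-KO mice at that p, and none was lower, beside the 3.51% and 4.09% of all genes given above. Without WT male 2, 5 of the mitochondrial ribosomal proteins were higher and 3 lower, and no citric acid cycle enzyme was either. Without WT male 1, where 15.6% of all genes were at that p, 35 of the former and 10 of the latter were higher. With all 7 males, 3 of 82 cytosolic ribosomal proteins were higher and 2 lower, and none of the 11 regulators was either. Without WT male 2, 2 of these ribosomal proteins were higher and 16 lower, beside 6.66% of all genes in either direction. Without WT male 1, 5 were higher and 0 lower, and 1 regulator was lower. The median log2 fold changes in females and males were 0.17 and 0.12 for the citric acid cycle, 0.08 and 0.12 for the mitochondrial ribosome and -0.01 and 0.00 for the cytosolic ribosome. Without U9-KO female 3 and WT male 2 respectively, they were 0.05 and 0.01 for the citric acid cycle and -0.00 and 0.02 for the mitochondrial ribosome. For the cytosolic ribosome they were then 0.02 and -0.06.

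Markers of the cells in the tissue also moved with U9-KO female 3 and WT male 2. All 9 adipocyte markers, among them Adipoq and Plin1, were present in every group. Their median difference was 0.65 in U9-KO female 3, with 6 of 9 highest there, and -0.43 in WT male 2, with 9 of 9 lowest. The sum of the 9 ran from 381084 to 712324 in WT females, 385686 to 968265 in U9-KO females, 766157 to 1204198 in WT males and 987183 to 1150505 in U9-KO males. U9-KO female 3 held the highest sum of the females and WT male 2 the lowest of the males. The 5 myeloid markers had medians of -0.77 and 0.77 in these mice, and sums of 9534 to 18131, 8045 to 16751, 17929 to 29852 and 12619 to 16628 in the groups in the same order. The 4 B cell markers had medians of -1.43 and 1.30, with sums of 392 to 1167, 255 to 1316, 295 to 730 and 214 to 243. In males, 4 of 4 B cell, 3 of 5 myeloid and 1 of 4 T cell markers were lower in U9-KO mice at an unadjusted p under 0.05 by limma, as were 4.09% of all genes, and none passed adjustment. With WT male 2 left out these counts were 1, 2 and 3, beside 6.66% of all genes in either direction. With WT male 1 left out they were 4, 5 and 1, beside 15.6% of all genes in either direction. For the T cell markers the median log2 fold change was -0.97 in males, with medians of -0.36 in U9-KO female 3 and -0.30 in WT male 2, and sums of 63 to 117, 72 to 175, 126 to 191 and 54 to 106. In females no B cell or myeloid marker was at that p. Of the 4 T cell markers, 1, Cd8a, was higher in U9-KO females at that p (log2 fold change 1.14 by limma), as were 1.24% of all genes. It did not pass adjustment. The 5 red blood cell markers had medians of 1.11 in U9-KO female 3, the highest of the females, and -0.36 in WT male 2, with sums of 12589 to 19732, 11466 to 41769, 66137 to 122306 and 48271 to 98178. The 5 mesothelial markers were at -0.47 and 0.27, with sums of 7504 to 11959, 6085 to 13522, 4163 to 7518 and 3444 to 7524. The part of any of these in the OXPHOS values was not tested.

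The adipocyte markers and the OXPHOS genes did not move together in every mouse. In WT female 4 and U9-KO female 1, where the 11 ovary markers summed to 125190 and 140266 and the other females had less, the adipocyte medians were -0.71 and -0.67, and the nuclear OXPHOS medians were -0.21 and -0.10. In WT female 3, by contrast, the adipocyte median was -0.08 and the nuclear OXPHOS median -0.27. The 6 brown or beige fat markers had a median of 1.90 in U9-KO female 3, and the 5 of them that were tested in males, without Ucp1, had one of -1.73 in WT male 2. Their sums were 169 to 374 in WT females, 198 to 1186 in U9-KO females, 118 to 883 in WT males and 222 to 1015 in U9-KO males. In females 1 of the 6, Cidea, was higher in U9-KO mice at an unadjusted p under 0.05 by limma, as were 1.24% of all genes. Its log2 fold change was 1.60 and it did not pass adjustment. Without U9-KO female 3, 1 of the 6 was still at that p. Ucp1, the defining uncoupling protein of brown fat, was at 0 to 7 in every mouse, with 7 in U9-KO female 3. Cox8b, the muscle and brown fat partner of Cox8a, had 86 to 176 counts in WT females, 107 to 705 in U9-KO females with the 705 in U9-KO female 3, and 37 in WT male 2. The 4 endothelial markers were at 0.64 in U9-KO female 3 and 0.24 in WT male 2. In males, Cldn5 among them was lower in U9-KO mice at an unadjusted p under 0.05 by limma, as were 4.09% of all genes. Of 9 ovary markers tested in males 1, Hsd3b1, was higher at that p, as were 3.51% of all genes. Of 5 skeletal muscle markers tested in females 1, Acta1, was lower at that p, as were 0.983% of all genes. Its log2 fold change was -2.08. None of these genes passed adjustment. The part of these markers was not tested either.

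**Figure D5:**
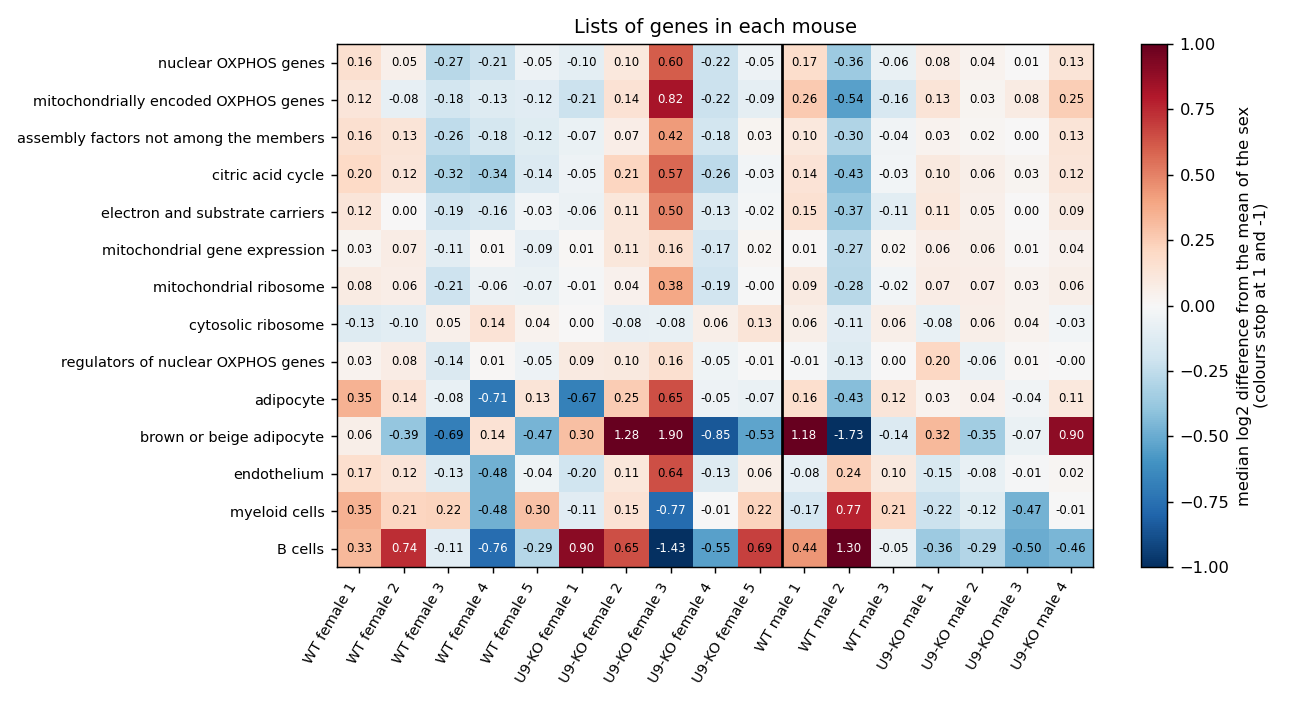
Median difference from the mean of the sex, in log2(normalized count + 1), of the OXPHOS genes, 7 related lists and 5 lists of cell markers in each of 17 mice. Colours run from blue (below the mean) to red (above) and stop at -1 and 1, and the black line parts females from males. U9-KO female 3 and WT male 2 stand out in the mitochondrial lists, at 0.82 and -0.54 for the mitochondrially encoded genes, and also in the adipocyte list, at 0.65 and -0.43.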

How the data were processed

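Total RNA of pWAT was sequenced from poly(A)-selected, strand-specific libraries, 1 per mouse. The authors checked and trimmed the reads, aligned them with STAR 2.7.3a to GRCm38 (versions from the submitters' processing notes), assigned them to genes by summarizeOverlaps (Union), divided the counts by size factors (DESeq2 1.28.1) and rounded them. The deposited values are therefore a score per gene and not raw counts. They carry counting error from an estimated 19700000 to 27610000 reads per library.

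Groups were taken from the labels. Genes were named from GENCODE M21. Those whose values summed to 10 or more in the mice compared were tested with limma 3.58.1 (R 4.3.3) on log2(normalized count + 1). The prior variance followed a trend on mean level, and p-values were adjusted by Benjamini and Hochberg's method across all genes tested. The scripts were tested on simulated data. A fold change on this scale understates that of low genes. Females and males were fitted alone and together, with sex as a covariate or with an interaction. Sums, shares and medians over members were described without a test. Alternatives were no filter, a mean of at least 10, a pseudocount of 0.5, no trend, robust empirical Bayes, rescaling outside the mitochondrial chromosome, quantile normalization, a block for the replicate number, a single fit of all 17 mice, another denominator, and leaving out each mouse.

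Members, lists and tests were chosen with earlier results of these data known. Named genes were the 13 mitochondrially encoded genes, the 2 highest per kb of each nuclear group, the 5 with the smallest p and the 3 with the largest fold change in each sex, and the restricted isoforms with their partners. Any other gene was picked with its values in view. The combined table of all 17 libraries was not used here. Its values equal those of the single files, but it numbers 2 of the libraries differently (those labelled WT male 3 and U9-KO male 4), and the numbers here are those of the labels.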

Additional observations from a re-analysis of the deposited data

Results flagged for a closer look

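Mice far from the rest of their group were looked for with Dixon's ratio, the gap to the nearest mouse divided by the range, in 139 sets of 4 or 5 values. Chance alone would mark about 1 in 20 of such groups, or 6.95, and 23 were marked. The sets are not independent, since OXPHOS genes move together. Some genes in them, such as Atp5k and Atp5g3, were also named for a large fold change in these same mice. The 23 can therefore not be read against 6.95 as a test. U9-KO female 3 accounted for 17 of them, always as the highest U9-KO female. In this mouse the sum of the mitochondrially encoded genes was 2135230, with 1032575 to 1331401 in the other 4. By gene it had 144778 of mt-Atp6, 32709 of mt-Atp8, 660562 of mt-Co1, 212105 of mt-Co2, 202360 of mt-Co3, 25354 of mt-Nd3 and 42195 of mt-Nd4l. Among nuclear genes it had 2875 of Ndufa2, 4961 of Ndufa4, 201 of Ndufa4l2, 3986 of Uqcr10, 3681 of Uqcr11, 7396 of Cox6a1, 3756 of Cox7b, 11945 of Atp5g3 and 2060 of Atp5k. WT female 1 was above the other WT females with 18510 of mt-Atp8, 150288 of mt-Cytb and 139792 of mt-Nd4. U9-KO male 2 was below the other U9-KO males with 529 of Ndufaf4, and U9-KO male 4 was above them with 1488 of Atp5k. U9-KO female 4 alone had any Cox7b2, with 2. The 3 WT males are too few for this ratio, so that WT male 2 was not examined by it.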

How the results depend on the processing

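No OXPHOS gene had an adjusted p under 0.05 in any comparison under any alternative run. The number at an unadjusted p under 0.05 in males was 14, and 6 without the mean-variance trend and 3 with all 17 mice in 1 fit. It ran from 6 to 65 when 1 mouse was left out. In females it was 0, and 0 to 4 with 1 mouse left out. In both sexes together it was 3, and 1 without the trend, 0 with the replicate number as a block and 0 to 20 with 1 mouse left out. For the interaction it was 0, and 2 with libraries rescaled outside the mitochondrial chromosome and 0 to 4 with 1 mouse left out. The cause of these shifts was not tested. Median log2 fold changes with 1 mouse left out were 0.01 to 0.21 (nuclear) and -0.01 to 0.26 (mitochondrially encoded) in females, and 0.01 to 0.29 and 0.08 to 0.47 in males. Quantile normalization, which limits a joint shift of the most abundant genes, gave a mitochondrially encoded median of -0.02 in females. With genes outside the mitochondrial chromosome as the denominator, the mitochondrially encoded share was 5.49% in WT females and 5.60% in U9-KO males, and the nuclear share in U9-KO males 1.24%. Mice with the same replicate number did not deviate together (females, correlations of -0.44 to 0.11, and males, -0.12 to -0.01), and the numbers pair no mice. With the replicate block, 0 members in females and 10 in males, where U9-KO male 4 has no partner and was left out, had an unadjusted p under 0.05. Levels per kb depend on length. By principal transcript the median was 294 for assembly factors and 3313 for complex V. Values of shares, complexes, lists and isoform ratios without single mice or within mice were added after seeing the data. Depth does not limit the abundant members, but for Cox6a2, Cox7b2 and Cox8c no difference was detectable.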
